A study of Mus musculus with 2 samples.

Results

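Cells of the liver innate immune compartment were compared between 1 mouse that carried a Lyz2-driven deletion of Egr2 and 1 mouse that did not, both fed CDA-HFD for 7 weeks. CDA-HFD is a high-fat diet without choline, its protein replaced by defined amino acids, that produces steatohepatitis and then fibrosis. The control mouse was Egr2fl/fl, with both Egr2 alleles flanked by loxP sites and no Cre. The other mouse, called the Cre mouse here, was Lyz2Cre/+.Egr2fl/fl, and carried in addition 1 Lyz2 allele that encodes Cre recombinase. Cells were taken by their name prefix, which gives the hashtag of the mouse, and cells with more than 25% of counts from mitochondrial genes or with a doublet prefix were left out. This left 5885 cells of the control mouse and 6186 cells of the Cre mouse, that is 12071 of the 15384 cells of 4 mice. The other 3313 cells came from 1 Egr2fl/fl and 1 Lyz2Cre/+.Egr2fl/fl mouse on normal diet (ND), and they were used here only beside the CDA-HFD values.

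The sorted fraction was CD45.2+, CD11b+ and negative for CD90.2, B220, NK1.1 and SiglecF. Cells of the 4 mice were labelled with hashtags, pooled and captured together, and 0 cell barcodes were shared between mice. Each group was 1 mouse, so no test between genotypes was possible. All intervals below are exact 95% intervals that take each count as independent and cover counting error only. They leave out the spread between cells and are too narrow for it, and the spread between mice was not measured. A difference between the mice and an effect of the deletion cannot be told apart.

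Egr2 (early growth response 2, also called Krox20) is a zinc finger transcription factor that is induced quickly by many signals. It binds GC-rich sites that Egr1 and Egr3 also bind, and the Nab1 and Nab2 corepressors attach to it. In macrophages it is known as a factor of alternative activation and of monocyte-derived cells. Lyz2, which encodes lysozyme M, is expressed in neutrophils, monocytes and macrophages and far less in dendritic cells, which is why its locus is used to drive Cre in myeloid cells.

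The control and Cre mouse gave 85227192 and 90124521 counts. The median cell held 13168 counts in the control mouse and 13476.5 in the Cre mouse, and the median mitochondrial share was 2.02% and 2.09%. Cell classes were set by scoring each cell on marker genes. The names below stand for these marker gates and not for an assignment by the authors. Itgam, which encodes CD11b and was part of the sort, stood at 246 counts per 1000000 counts (CPM) in the control mouse and 249 in the Cre mouse. S100a8, a gene abundant in neutrophils, was counted in 56.4% to 86.9% of the cells of the other 5 classes, and how much of this was free RNA was not tested. For 34 genes, Lyz2 and Mmp12 among them, the deposited table holds no value from 1 to 4, so low counts of these genes were lost.

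The gates took 887 macrophage-like cells from the control mouse and 991 from the Cre mouse, which was 15.1% and 16.0% of the cells. Ly6C-high monocyte-like cells numbered 944 and 1044, or 16.0% and 16.9%. Ly6C-low monocyte-like cells numbered 326 and 412, neutrophil-like cells 883 and 723, Cd209a-positive cells 556 and 560, and Ccr7-positive cells 242 and 179. The neutrophil-like share was 15% in the control mouse and 11.7% in the Cre mouse. The depth of the macrophage-like cells differed between the mice, with a median of 24051 and 20787 counts per cell. The gate for Kupffer-like cells held only 9 and 21 cells on this diet, although 3.01% and 3.98% of all cells had counts of at least 2 of its 8 markers.

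Egr2 lies at chr10:67534469-67542188 of GRCm38. Over all cells it stood at 49.4 CPM in the control mouse and 18.2 CPM in the Cre mouse, a CPM ratio of Cre to control mouse of 0.369 (0.349 to 0.391). The macrophage-like cells held 52.4 CPM of Egr2 in the control mouse and 5.51 in the Cre mouse, a ratio of 0.105 (0.0868 to 0.127). Neutrophil-like cells had a like ratio, with 55.5 and 5.10 CPM of Egr2 and a ratio of 0.0918 (0.0535 to 0.148), from 227 and 18 counts. Both monocyte classes lay between. The Egr2 ratio was 0.370 (0.307 to 0.443) in Ly6C-high and 0.362 (0.225 to 0.571) in Ly6C-low monocyte-like cells. The cells that fell in no gate had an Egr2 ratio of 0.379.

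The Cd209a-, Ccr7- and Xcr1-positive classes had Egr2 ratios nearer to 1. Over the alternatives tried, the Egr2 ratio ran from 0.753 to 0.830 in Cd209a-positive cells and from 0.392 to 0.960 in Ccr7-positive cells. Cd209a-positive cells had the highest Egr2 level of the gated classes in both mice, with 59.96 CPM in the control mouse and 49.8 CPM in the Cre mouse, a ratio of 0.830 (0.731 to 0.942). Ccr7-positive cells had 33.4 and 28.5 CPM of Egr2, and their ratio of 0.854 had an interval of 0.634 to 1.14 that includes 1. In Xcr1-positive cells, 51 and 79 in number, the Egr2 ratio was 1.08 (0.737 to 1.61). Plasmacytoid dendritic-like cells, 35 and 31 in number, had 15 and 1 counts of Egr2, a ratio of 0.0601 with a wide interval of 0.00143 to 0.391. The Cd209a-positive cells therefore served as a class with nearly the same Egr2 level in the same pair of mice, although the interval of their ratio lies below 1.

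**Figure D1:**
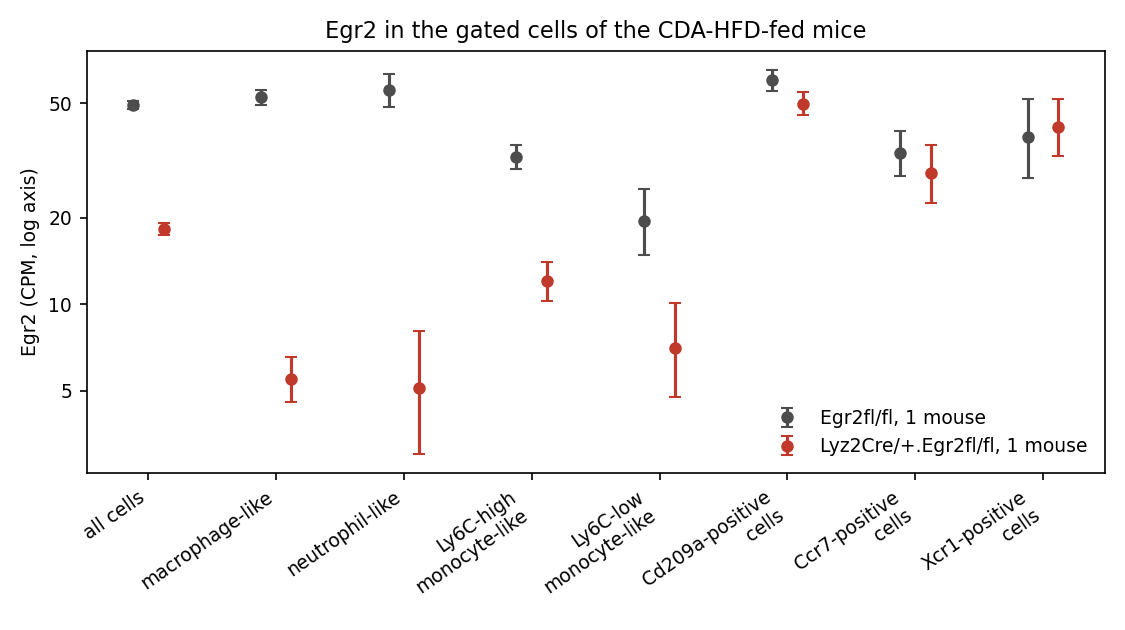
Egr2 in CPM (log axis) in all cells and in the marker-gated classes of the CDA-HFD-fed control mouse (grey) and Cre mouse (red), with exact 95% counting intervals as bars and 1 mouse per point. The intervals of both mice lie apart in all cells, macrophage-like, neutrophil-like, both monocyte-like and, by a small gap, Cd209a-positive cells, and they overlap in the Ccr7-positive and Xcr1-positive cells.

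How the macrophage-like cells were delimited set the size of the Egr2 ratio, which was 0.0663 with stricter gates and 0.211 with clusters in place of gates. On ND the Egr2 level over all cells was 13.3 CPM in the control mouse and 5.85 in the Cre mouse, a ratio of 0.441. The Kupffer-like cells of the ND-fed mice had an Egr2 ratio of 0.219, from 4.56 and 0.998 CPM.

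Lyz2 itself, at chr10:117277541-117282272, was below the control level in all 6 classes of the mouse with 1 Cre-carrying Lyz2 allele, with low values lost in both mice. In Ly6C-high monocyte-like cells, where Lyz2 was most abundant, it stood at 23508 and 12287 CPM, a ratio of 0.523. The Lyz2 ratio was 0.528 in macrophage-like cells, 0.495 in Ly6C-low monocyte-like cells and 0.386 in Cd209a-positive cells. Neutrophil-like cells were the exception in size, with 2429 and 2168 CPM of Lyz2 and a ratio of 0.893. On ND the Lyz2 ratio over all cells was 0.450.

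Of the other genes of the Egr and Nab family, Egr1, Egr3, Nab1 and Nab2 stayed within 1.5-fold over all cells. Egr1 had a ratio of 0.599 in Ly6C-high monocyte-like cells, from 68.6 and 41.1 CPM, and 1.04 in macrophage-like cells. In neutrophil-like cells Egr3 stood at 108 and 56.1 CPM, a ratio of 0.519. Nab1 and Nab2 had ratios of 1.28 and 0.909 in macrophage-like cells.

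Genome-wide, genes with at least 500 counts in both mice together were read, and a gene is called higher or lower where its CPM ratio was at or past 1.5-fold in that direction. Over all cells 125 of 10860 genes were higher (1.15%) and 90 were lower (0.829%) in the Cre mouse, while 87.7% lay within 1.2-fold. Among 7166 genes read in macrophage-like cells, 92 were higher (1.28%) and 84 lower (1.17%). For Cd209a-positive cells the counts were 32 higher (0.796%) and 38 lower (0.946%) of 4019 genes. These classes were read at different depths, so their counts of genes are not on 1 scale. The median ratio over all genes read was 1.02 in macrophage-like and 1.01 in Cd209a-positive cells.

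The other classes were of the same order. Ly6C-high monocyte-like cells had 56 genes higher (1.04%) and 58 lower (1.08%) of 5364. Ly6C-low monocyte-like cells had 26 higher (1.25%) and 18 lower (0.863%) of 2085. Neutrophil-like cells held few counts, and 40 genes were higher (2.07%) and 56 lower (2.9%) of 1931. Ccr7-positive cells had 15 higher (0.955%) and 19 lower (1.21%) of 1570. The ND-fed pair, with fewer cells, had 177 higher (2.05%) and 145 lower (1.68%) of 8653 genes over all cells.

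The 3919 genes read in both macrophage-like and Cd209a-positive cells were then compared gene by gene, which separates ratios found in 1 class from ratios found in both. Lower in macrophage-like cells alone, meaning at or past 1.5-fold there and within 1.2-fold in Cd209a-positive cells, were 16 genes (0.408%). Higher in macrophage-like cells alone were also 16 genes (0.408%). By the same rule with the classes exchanged, 13 genes (0.332%) were lower and 14 (0.357%) higher in Cd209a-positive cells alone. Membership depended on the cells taken. Of the 16 lower genes 11 kept the call with stricter gates, 9 with clusters and 10 with gates that left out the markers past 1.5-fold. Of the 16 higher genes 5, 7 and 9 kept it in the same order, and 9 with TMM factors. Lower in both classes were 9 genes (0.23%), and higher in both were 6 (0.153%). The 16 lower genes were Amz1, Ccl6, Ccr1, Ciita, Clec7a, Crip1, Dusp5, Fgr, H2-DMa, H2-DMb1, H2-DMb2, Itgax, Lpcat1, Matk, Septin9 and Uck2. The 9 lower in both were Lyz2, Hspa1a, Hspa1b, Hsp90aa1, Gm5844, Gm12346, Dnajb1, Hilpda and Maff, and 6 of these 9 (Hspa1a, Hspa1b, Hsp90aa1, Dnajb1, Gm5844, Gm12346) are heat shock chaperones or copies of Hsp90aa1. H2-DMb2 is a marker of a gate, and Gm5844 and Gm12346 may share reads with Hsp90aa1.

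**Figure D2:**
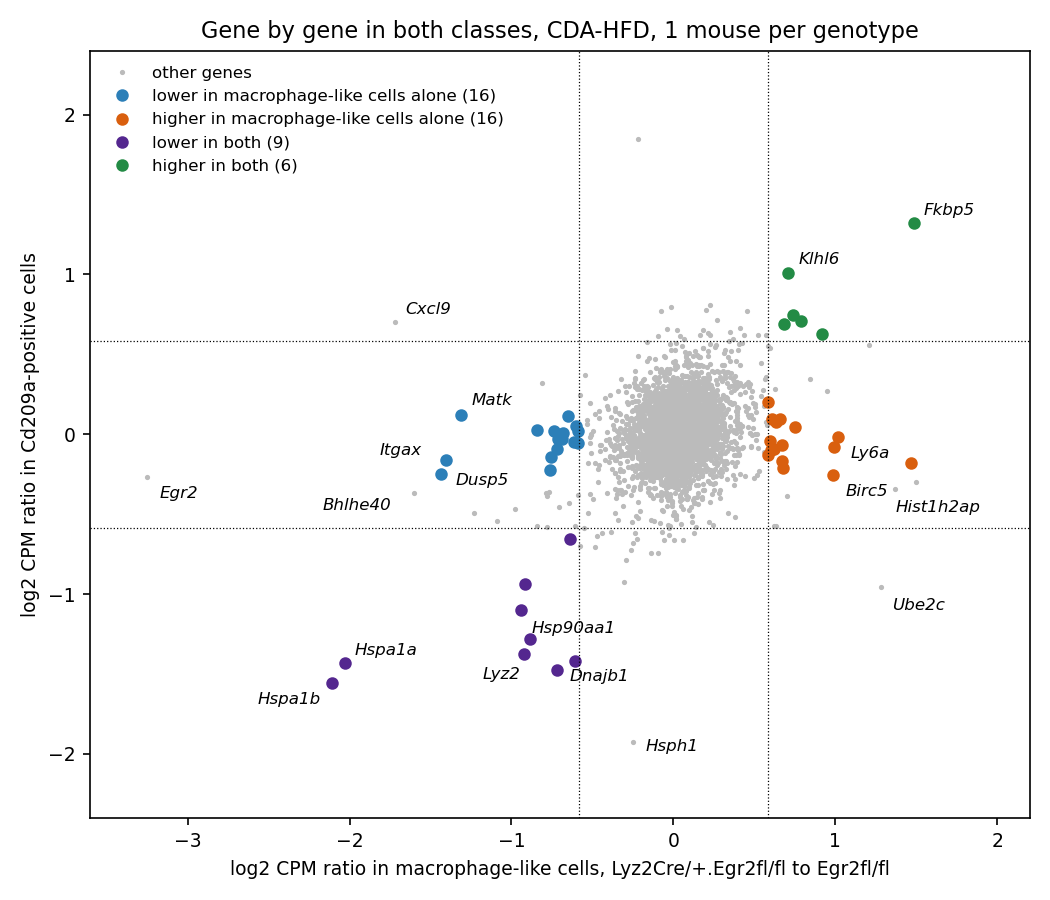
Each point is 1 of 3919 genes with at least 500 counts in both classes, placed by its log2 CPM ratio of Cre to control mouse in macrophage-like cells (x axis) and in Cd209a-positive cells (y axis), with dotted lines at 1.5-fold. Coloured points are the 16, 16, 9 and 6 genes that were lower or higher in macrophage-like cells alone or in both. Egr2 and Itgax lie far to the left at little change on the y axis, and Hspa1a and Hspa1b lie low on both axes.

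Itgax, which encodes the CD11c chain of an integrin receptor for complement, lies at chr7:128129526-128150657. In macrophage-like cells it stood at 142 CPM in the control mouse and 53.7 CPM in the Cre mouse, a ratio of 0.378 (0.353 to 0.404). Cd209a-positive cells had more Itgax, 280 and 251 CPM, and a ratio of 0.896. The ratio was 1.08 in Ly6C-high monocyte-like cells and 1.03 in neutrophil-like cells, and it was 0.719 in Ly6C-low monocyte-like cells. Over the alternatives tried, the Itgax ratio in macrophage-like cells ran from 0.326 to 0.451. Siglecf, a sialic acid-binding receptor that the study treats together with Itgax, was sparse, with 5.005 and 1.42 CPM in macrophage-like cells and a ratio of 0.284 (0.186 to 0.424). SiglecF was part of the antibody mix used to remove cells, so cells that bound it were removed.

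Bhlhe40, a basic helix-loop-helix repressor, stood at 58.3 and 19.2 CPM in macrophage-like cells, a ratio of 0.329 (0.295 to 0.367). It was 262 and 203 CPM in Cd209a-positive cells, a ratio of 0.776, and 1.33 times as high in Ly6C-low monocyte-like cells of the Cre mouse. Dusp5, a nuclear phosphatase that inactivates ERK, stood at 40.3 and 14.9 CPM in macrophage-like cells, a ratio of 0.370 (0.326 to 0.420). Its ratio was 0.840 in Cd209a-positive and 0.684 in neutrophil-like cells. Matk, a kinase that inhibits Src family kinases, stood at 63.2 and 25.5 CPM in macrophage-like cells, a ratio of 0.404 (0.366 to 0.445), against 1.09 in Cd209a-positive cells. Matk was also low in Ly6C-low monocyte-like cells, at 0.356.

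By the ratio in macrophage-like cells over that in Cd209a-positive cells, the lowest of the 3919 genes with at least 500 counts in each were Egr2 (0.127), Cxcl9 (0.187), S100a9 (0.239), Matk (0.372), Itgax (0.422), Bhlhe40 (0.425), Dusp5 (0.440), Ear2 (0.455), Anxa1 (0.530) and Amz1 (0.546). The place of Cxcl9 rests on few cells, since 1 cell held 54% of its counts in the Cd209a-positive cells of the Cre mouse. S100a9 and Ear2 are gate markers. S100a9, with low values lost, had ratios of 0.857 in macrophage-like and 3.59 in Cd209a-positive cells, which ran from 0.0817 to 2.4 and from 0.611 to 8.70 over the alternatives. Ccr1, a receptor of inflammatory chemokines, stood at 42.2 and 25.3 CPM in macrophage-like cells (ratio 0.599) and 84.5 and 85.9 in Cd209a-positive cells (1.02). Ccl6, a ligand of that receptor, was lower in the same cells, with a ratio of 0.622, and 1.25 times as high in neutrophil-like cells. Fgr, a Src family kinase of myeloid cells, had a ratio of 0.664 there and 0.965 in Cd209a-positive cells.

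A further 4 genes outside the fixed lists were among the 15 lowest in macrophage-like cells, and were picked after their values were seen. Vsig8 stood at 27.5 and 2.18 CPM, a ratio of 0.0790 (0.0578 to 0.106), and the only other group of cells with at least 100 counts of Vsig8 was the ungated cells, at 0.228. Atp6v0d2, a subunit of the vacuolar proton pump, stood at 51.2 and 14.3 CPM, a ratio of 0.278 that became 0.483 with clusters in place of gates. Sdc1, the proteoglycan syndecan 1, stood at 24.8 and 7.38 CPM, a ratio of 0.297. Rhoc, a small GTPase, stood at 102 and 34.9 CPM, a ratio of 0.342, against 1.09 in Cd209a-positive cells and 1.35 over all cells of the ND-fed pair.

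Lipid-associated macrophage genes, a list of genes known from macrophages of steatotic liver and fat, lay below a ratio of 1 on balance in macrophage-like cells. Of 27 members read, 8 were lower, 0 higher and 25 below 1, with a median ratio of 0.836. In Cd209a-positive cells 0 of 10 members read were past 1.5-fold and the median was 0.996. In Ly6C-high monocyte-like cells the list had 4 members higher (Fabp4, Cd36, Lpl and Spp1), 0 lower and a median of 1.08. Fabp4 is a gate marker. Summed macrophage markers in these monocyte-like cells were 4644 CPM in the control mouse and 7532 CPM in the Cre mouse, and their part in the 4 ratios was not tested. The 8 lower genes in macrophage-like cells were Mmp12, Fn1, Itgax, F7, F10, Fabp5, Ctsk and Cd63, and Fn1 and Cd63 are also gate markers. Other members were within 1.5-fold. Spp1 (osteopontin) stood at 614 and 522 CPM, a ratio of 0.850 against 1.55 in Ly6C-high monocyte-like cells, Cd9 at 497 and 415 CPM, a ratio of 0.836, and Gpnmb and Trem2, which served the gate, had ratios of 0.779 and 0.973.

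The macrophage-like cells were a mix that differed between the mice, and they were also read by cluster, a division made after the data were seen. Of the macrophage-like cells, cluster 2 held 411 of the control and 363 of the Cre mouse, and cluster 5 held 390 and 511. Mmp12 was the more abundant in cluster 2, at 961 CPM in the control mouse against 91.8 CPM in cluster 5. Within cluster 2 the lipid-associated list had 6 of 27 members lower, 0 higher and a median of 0.860, and within cluster 5 it had 6 of 25 lower, 0 higher and a median of 0.898. Mmp12 had ratios of 0.343 and 0.572 in the clusters, Itgax 0.312 and 0.456, and Fn1 0.343 and 0.323. Cd63 was at 0.683 and 0.776, so that neither value was past 1.5-fold.

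Mmp12, macrophage elastase at chr9:7344397-7360461, stood at 537 CPM in the control mouse and 173 CPM in the Cre mouse in macrophage-like cells, a ratio of 0.322 (0.311 to 0.334). It is one of the 34 genes whose low values were lost. The coagulation factors F7 and F10, made by macrophages as well as hepatocytes, had ratios of 0.426 (49.2 and 21.0 CPM) and 0.549 (60.3 and 33.1 CPM). Fabp5, a fatty acid carrier, stood at 777 and 451 CPM, a ratio of 0.581, and its relative Fabp7 at 293 and 161 CPM, a ratio of 0.549. Ctsk, the collagen-cleaving cathepsin K, stood at 21.7 and 14.1 CPM, a ratio of 0.653.

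Profibrotic and matrix genes had 6 of 19 members lower and 0 higher in macrophage-like cells, with a median of 0.851. The 6 were Mmp12, Fn1, Mmp13, Mmp19, Vegfa and Plaur. Mmp13, a collagenase, stood at 32.5 and 14.1 CPM, a ratio of 0.433, and Mmp19 at 36.7 and 18.4 CPM, a ratio of 0.502. Vegfa, the main angiogenic growth factor, had a ratio of 0.550 and Plaur, the urokinase receptor, one of 0.656, and their ratios in neutrophil-like cells were 0.540 and 0.659. Anpep, the aminopeptidase CD13, was low in both diets, at 22.2 and 7.24 CPM in macrophage-like cells on CDA-HFD (ratio 0.326) and with a ratio of 0.360 over all cells on ND.

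MHC class II genes lay below a ratio of 1 on balance in macrophage-like cells. Of 8 members read, 4 were lower and all 8 below 1, with a median of 0.707. In Cd209a-positive cells 0 of 10 members were past 1.5-fold, at a median of 0.964. Ciita, the coactivator that switches the class II genes on, stood at 38.4 and 22.6 CPM in macrophage-like cells, a ratio of 0.588, and 201 and 172 CPM in Cd209a-positive cells, a ratio of 0.857. The peptide-exchange subunits H2-DMa and H2-DMb1 had ratios of 0.653 and 0.621. The antigen-presenting chains H2-Aa and H2-Ab1 and the invariant chain Cd74, all with low values lost, were nearer to 1, at 0.792, 0.761 and 0.816. Summed markers of the Cd209a-positive gate stood at 160.6 CPM in the macrophage-like cells of the control mouse and 180.9 CPM in those of the Cre mouse. Summed markers of Ly6C-low monocytes in the same cells stood at 1676 and 1229 CPM. With 0 markers of either list at 0 in these cells, the part of such cells in the class II ratios was not tested, and H2-DMb2 is itself a marker of the Cd209a-positive gate. Over all cells of the ND-fed pair, a different set of cells, 5 of 10 class II genes were lower, with a median of 0.664. In that pair the Cd209a-positive share was 7.37% in the control and 6.73% in the Cre mouse. The Xcr1-positive share was 3.66% and 1.45%, the Ccr7-positive share 1.92% and 0.881%, and the Kupffer-like share 44.4% and 52.7%. The part of these shares in the ND ratios was not tested.

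Inflammatory mediators were mixed in macrophage-like cells. Of 14 chemokine ligands 1 was higher and 3 lower, and of 16 cytokines and inhibitors 1 was higher and 2 lower. Tnf stood at 34.8 and 19.4 CPM, a ratio of 0.559, and at 308 and 302 CPM in neutrophil-like cells. Ccl4 was the higher chemokine, at 295 and 446 CPM, a ratio of 1.51. Il10, the anti-inflammatory cytokine, stood at 7.80 and 17.4 CPM, a ratio of 2.23, but 1 cell held 28% of its control counts and its ratio was 1.40 with clusters in place of gates and 5.40 when cells under 90% own-hashtag counts were dropped. Of 18 interferon gamma-induced genes 3 were lower, Cxcl9, Gbp2 and Ciita, and the median of that list was 0.964.

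**Figure D3:**
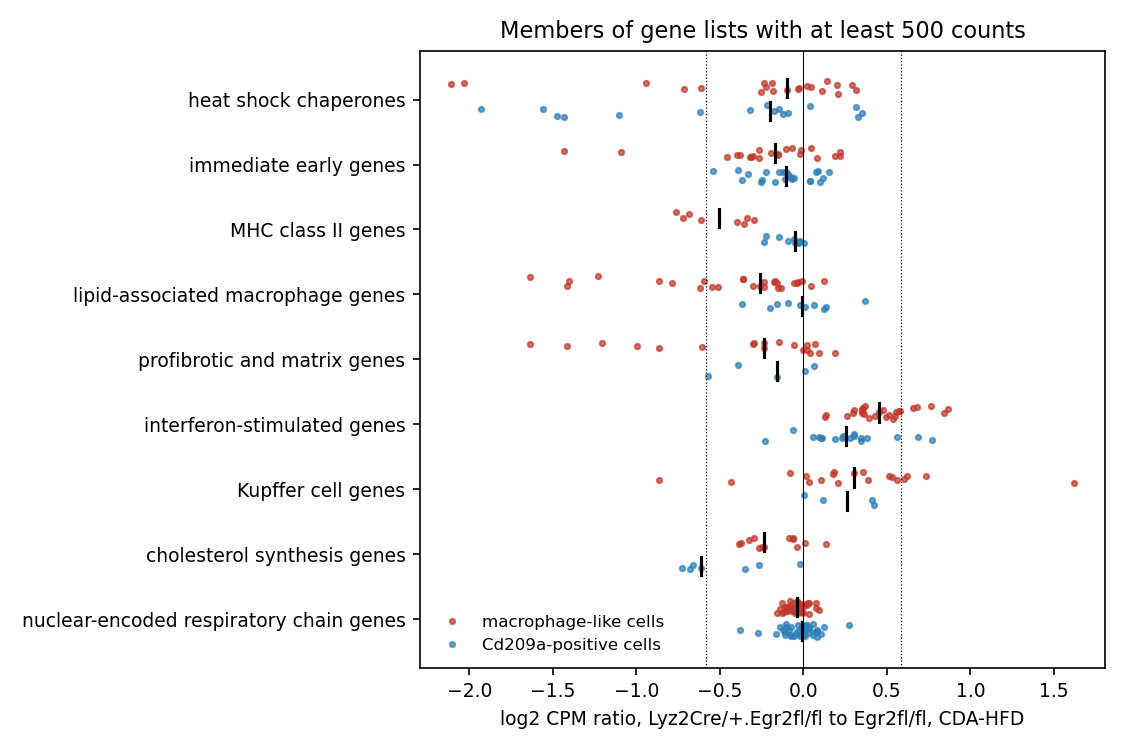
Log2 CPM ratio of Cre to control mouse for the members of 9 gene lists with at least 500 counts in macrophage-like cells (red) or Cd209a-positive cells (blue) on CDA-HFD, with black bars at the medians and dotted lines at 1.5-fold. MHC class II genes lie to the left of 0 in macrophage-like cells and near 0 in Cd209a-positive cells, and some heat shock chaperones lie far to the left in both.

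Kupffer cell genes were above 1 on balance in macrophage-like cells of the Cre mouse. Of 19 read, 4 were higher and 1 lower, with a median of 1.23. The 4 were Folr2, Vsig4, Cd5l and Clec4f, all of them gate markers and the last 3 with low values lost, and the lower gene was Fabp7. Folr2, the folate receptor beta, stood at 27.4 and 84.0 CPM, a ratio of 3.07 (2.80 to 3.37). Outside that list, Tmem26 stood at 5.98 and 17.0 CPM, a ratio of 2.84. Siglec1, the sialoadhesin CD169, stood at 21.4 and 39.4 CPM, a ratio of 1.84, and Itga6, an integrin chain for laminin, had a ratio of 1.77. The summed Kupffer markers of the gates moved along, at 463.3 CPM in the macrophage-like cells of the control mouse and 741.8 in those of the Cre mouse, with 0 of the 8 markers at 0 in either. By cluster, Folr2 had ratios of 3.28 in cluster 2 and 2.75 in cluster 5, whereas Cd5l had 1.94 and 1.23, Vsig4 1.13 and 1.42, and Clec4f 0.593 and 1.46. Clec4f, Cd5l and Vsig4 were more abundant in cluster 5, which held the larger share of the Cre mouse's macrophage-like cells, and none of the 3 was past 1.5-fold higher there. With members of at least 100 counts, the list had 5 of 19 higher, 2 lower and a median of 1.32 in cluster 2. In cluster 5 it had 2 of 20 higher, 2 lower and a median of 1.14. The part of Kupffer cells in these ratios was not tested.

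Interferon-stimulated genes lay above a ratio of 1 on balance. All 27 members read in macrophage-like cells were above 1, 5 were higher by 1.5-fold or more, and the median was 1.37. Irf7, the master factor of the interferon response, stood at 114 and 205 CPM, a ratio of 1.79. The antiviral sensor Oas3 stood at 19.6 and 35.7 CPM (1.83), Oasl2 at 69.8 and 112 CPM (1.602), and the membrane protein Ifitm3 had a ratio of 1.58. In Cd209a-positive cells 16 of 18 members were above 1 with a median of 1.196, and in Ly6C-high monocyte-like cells 24 of 26 with a median of 1.25, so the direction was shared by classes with a low and with a nearly equal Egr2 level. The ND-fed pair had a median of 1.10 over 31 members. Chaperones of the endoplasmic reticulum had 12 of 14 members above 1 in macrophage-like cells, at a median of 1.22, with 0 past 1.5-fold.

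Among genes with at least 500 counts in each class, those with the highest ratio in macrophage-like over Cd209a-positive cells were Ube2c, Hist1h2ap, H2ac11, Hsph1, Hist1h2ao, Birc5, H2-Q6, Pclaf, Mki67 and Racgap1. Mki67, the proliferation antigen, stood at 13.9 and 22.6 CPM in macrophage-like cells, a ratio of 1.63, and had a ratio of 0.765 in Cd209a-positive cells, which ran from 0.705 to 1.09 over the alternatives. Ube2c, a ubiquitin-conjugating enzyme of mitosis, went in opposite directions, at 10.5 and 25.6 CPM (2.43) in macrophage-like cells and 73.2 and 37.7 CPM (0.515) in Cd209a-positive cells. Birc5 (survivin) stood at 14.7 and 29.2 CPM, a ratio of 1.98. Without the 10% of cells highest in proliferation markers the macrophage-like ratios were 1.503 for Mki67, 1.77 for Ube2c, 1.23 for Racgap1 and 0.892 for Pclaf. The histone genes Hist1h2ap, Hist1h2ao and H2ac11 are near-identical copies, so their counts cannot be assigned with certainty.

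Hspa1a and Hsp90aa1, both inducible heat shock genes, were lower in the Cre mouse in all 6 classes. These include the Cd209a-positive cells, whose Egr2 level was nearly equal in both mice. Hspa1a and Hspa1b encode the inducible chaperone Hsp70 and are switched on by heat shock factor 1 under proteotoxic stress and during cell handling. Hspa1a stood at 940 CPM in the control mouse and 274 CPM in the Cre mouse over all cells, a ratio of 0.292 (0.287 to 0.296). It was 638 and 156 CPM in macrophage-like cells (0.245), 1163 and 257 in Ly6C-high monocyte-like cells (0.221), and 1889 and 303 in Ly6C-low monocyte-like cells (0.160). In Cd209a-positive cells Hspa1a stood at 1363 and 505 CPM (0.370), and in Ccr7-positive cells at 1222 and 422 CPM (0.345). Neutrophil-like cells had the least Hspa1a, 133 and 72.5 CPM, and a ratio of 0.545. The ND-fed pair, whose cells were pooled with these only after sorting, was at 84.7 and 113 CPM, a ratio of 1.34.

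Hspa1b followed, with 311 and 89.6 CPM over all cells and a ratio of 0.288, and 1.30 on ND. These genes share nearly all of their sequence, so reads may be divided between them. Hsp90aa1, the inducible Hsp90, stood at 681 and 329 CPM over all cells, a ratio of 0.483, and its ratios ran from 0.401 in Ly6C-low monocyte-like to 0.627 in neutrophil-like cells. The cochaperone Dnajb1 had a ratio of 0.510 (87.2 and 44.5 CPM) and Bag3 of 0.514 (29.0 and 14.9 CPM). On ND the ratios of Hsp90aa1, Dnajb1 and Bag3 were 0.802, 1.09 and 1.02. The small heat shock gene Hspb1 had the lowest ratio of the list over all cells, at 9.79 and 2.15 CPM and a ratio of 0.220, though 1 cell held 43% of its control counts in macrophage-like cells.

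Other members of the list were nearer to 1 over all cells. Hspa8, the constitutive Hsp70, had a ratio of 0.957, Hsp90ab1 of 0.874 and the mitochondrial Hspd1 of 0.930, whereas Dnaja1 was at 0.706 and was lower in 3 classes. Of 22 heat shock chaperones read over all cells, 7 were lower and 0 higher, at a median of 0.923. The counts were 5 of 21 lower in macrophage-like cells, 6 of 16 in Cd209a-positive cells, 6 of 18 in Ly6C-high monocyte-like cells and 1 of 21 on ND. Immediate early genes, which also respond to handling, had 2 of 23 members lower over all cells and a median of 0.840. The part of cell handling in these values was not tested.

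The sequences before the starts of Hspa1a, Hspa1b and Hspb1 are shown because these genes had the lowest ratios of the list and because the heat shock factor motif could be found in them. Each is the 250 bases before the RefSeq start in GRCm38.p6, on the strand of the gene, and capitals mark the letters GAANNTTC, which read the same on both strands. The first lies at chr17:34972157-34972406 and the second at chr17:34959239-34959488, both on the minus strand, and the third at chr5:135887669-135887918 on the plus strand.
Hspa1a: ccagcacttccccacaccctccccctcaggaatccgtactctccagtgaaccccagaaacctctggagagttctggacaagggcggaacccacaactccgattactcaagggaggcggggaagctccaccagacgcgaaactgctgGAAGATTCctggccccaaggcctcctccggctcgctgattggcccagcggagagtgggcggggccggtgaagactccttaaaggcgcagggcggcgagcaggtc
Hspa1b: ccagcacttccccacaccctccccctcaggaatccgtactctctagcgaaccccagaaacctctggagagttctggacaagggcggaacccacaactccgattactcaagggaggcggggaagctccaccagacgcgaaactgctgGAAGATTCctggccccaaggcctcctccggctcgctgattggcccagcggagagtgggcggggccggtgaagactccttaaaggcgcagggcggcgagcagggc
Hspb1: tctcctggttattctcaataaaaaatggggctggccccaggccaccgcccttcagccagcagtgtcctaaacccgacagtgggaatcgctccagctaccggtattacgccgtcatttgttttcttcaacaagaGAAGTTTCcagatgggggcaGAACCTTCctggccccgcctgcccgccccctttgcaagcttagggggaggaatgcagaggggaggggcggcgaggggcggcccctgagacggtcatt

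The motif begins 104 bases before the start in Hspa1a and in Hspa1b, and 117 and 97 bases before it in Hspb1. The windows of Hspa1a and Hspa1b were identical at 247 of 250 bases (98.8%). In windows of 250 bases before to 50 after the start, 10 of the 19 heat shock chaperones with a promoter entry held the motif (52.6%), against 581 of 8112 genes read over all cells (7.16%). It was in 8 of 66 genes lower (12.1%) and in 11 of 96 genes higher (11.5%) over all cells. In macrophage-like cells it was in 3 of 64 lower genes (4.69%) and 11 of 75 higher genes (14.7%). A match is a match of letters and not a measured site.

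The Egr motif, searched as GCGNGGGCG on both strands, was in 974 of the same 8112 windows (12.0%). Of the genes lower in macrophage-like cells it was in 9 of 64 (14.1%), of those higher in 4 of 75 (5.33%), and of all genes read there in 12.4%. Over all cells the order was the other way, with the Egr motif in 4 of 66 lower genes (6.06%) and 10 of 96 higher genes (10.4%). Among the 15 genes lower in macrophage-like cells alone that had an entry, 1 held it (Crip1), and it was not found in the windows of Itgax, Dusp5 or Matk.

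Other genes lower over all cells included Gadd45b, Maff, Hilpda, Rgcc and Acod1, of which Gadd45b is a member of the immediate early list and the others of no list read here. Gadd45b, a growth arrest gene, stood at 391 and 210 CPM over all cells, a ratio of 0.537, with 0.469 in macrophage-like cells and 0.687 in Cd209a-positive cells. It was most abundant in neutrophil-like cells, at 2251 and 1248 CPM. Maff had a ratio of 0.553 over all cells and Hilpda, a lipid droplet protein, of 0.621. Rgcc had a ratio of 0.538 over all cells, of 0.687 in macrophage-like and 0.846 in Cd209a-positive cells, and of 1.49 on ND. Acod1, which makes itaconate, stood at 82.3 and 41.9 CPM over all cells (0.509) with a ratio of 0.532 in neutrophil-like cells and 0.506 on ND.

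**Figure D4:**
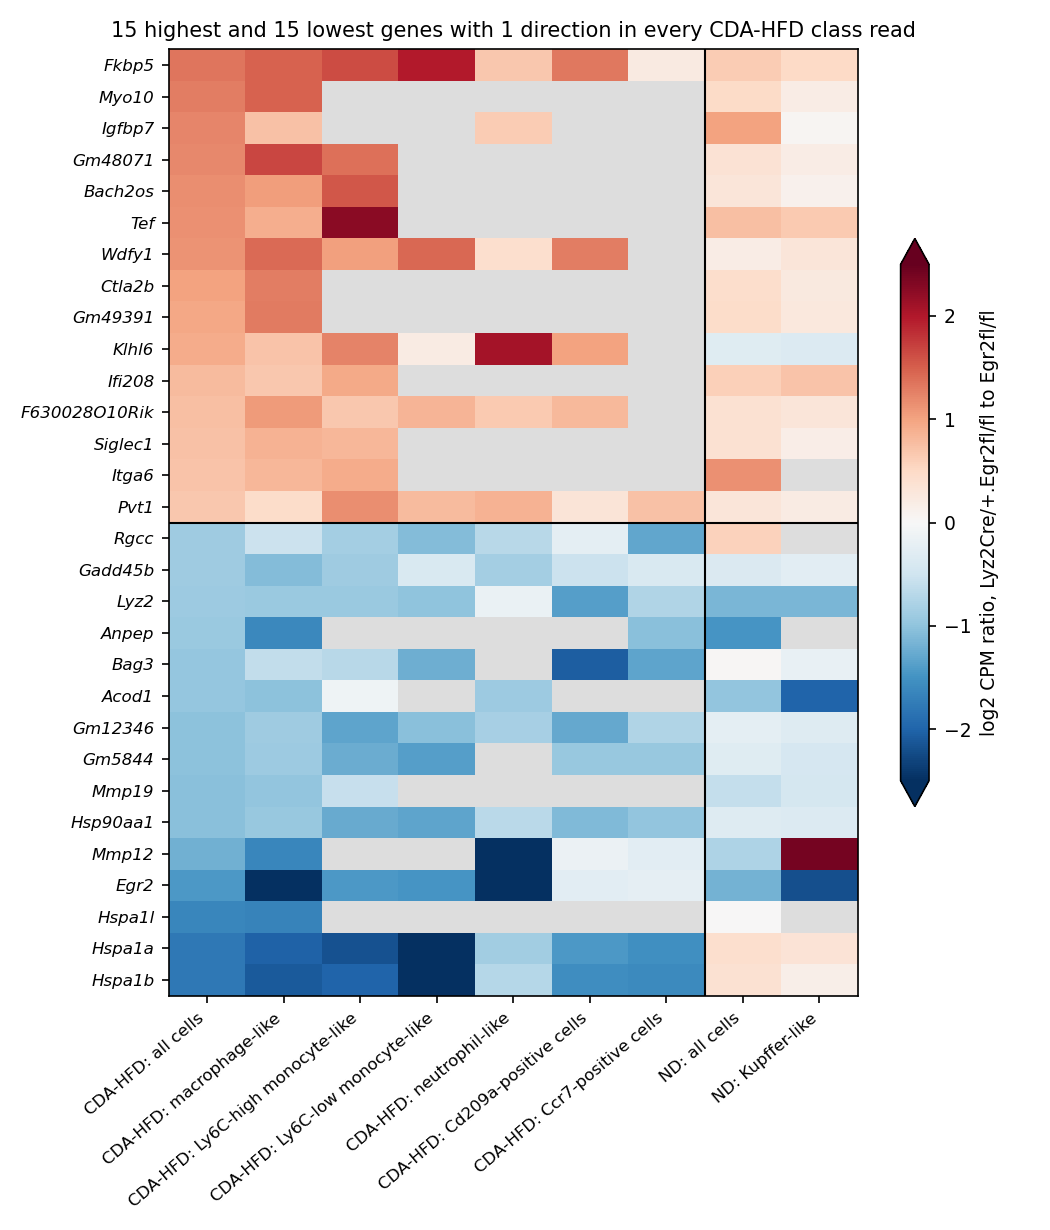
Log2 CPM ratio of Cre to control mouse (colour) for the 15 highest and 15 lowest genes that were detected in 5% or more of either mouse's cells and had the same direction in every CDA-HFD class where they were read, in all cells and 6 classes on CDA-HFD and in all cells and Kupffer-like cells on ND. Grey marks fewer than 100 counts. Fkbp5 is red in all columns, while Hspa1a and Hspa1b are blue on CDA-HFD and pale red on ND.

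At the opposite end, Fkbp5 had the highest all-cell ratio of the genes with 1 direction in every class read that were detected in 5% or more of either mouse's cells. It encodes a cochaperone of the glucocorticoid receptor and is strongly induced by glucocorticoids. Fkbp5 stood at 18.02 and 45.6 CPM over all cells, a ratio of 2.53 (2.38 to 2.68), and ran from 2.19 to 2.72 over the alternatives. It was 2.80 in macrophage-like, 3.10 in Ly6C-high monocyte-like, 3.95 in Ly6C-low monocyte-like, 2.499 in Cd209a-positive and 1.59 in neutrophil-like cells. On ND the ratio of Fkbp5 was 1.55. Zbtb16, another gene known to respond to glucocorticoids, stood at 3.61 and 7.28 CPM (2.01), but Tsc22d3, Dusp1 and Per1 had ratios of 1.26, 1.03 and 0.997. Of 17 glucocorticoid-induced genes, 3 were higher and 1 lower over all cells, with a median of 1.13.

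Clock genes were split as well. The clock output factor Tef stood at 3.64 and 7.99 CPM, a ratio of 2.196, and the repressor Nr1d2 at 4.93 and 9.03 CPM, a ratio of 1.83, while Ciart was lower at 0.638. Of 11 clock genes read over all cells, 2 were higher and 2 lower. Klhl6, an adaptor of a ubiquitin ligase, was also higher, at 35.3 and 67.2 CPM over all cells (1.91), 31.3 and 132 CPM in neutrophil-like cells (4.21) and 54.2 and 109 CPM in Cd209a-positive cells (2.02), and its ratio on ND was 0.814. Wdfy1, an endosomal adaptor, had a ratio of 2.18 over all cells, 2.67 in macrophage-like and 2.42 in Cd209a-positive cells. Serinc3, Klhl6, Fkbp5, H1f2, Oasl2 and Ddit4 were the 6 genes higher in both macrophage-like and Cd209a-positive cells.

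In Ly6C-high monocyte-like cells, some genes of lipid handling were higher and some of cholesterol synthesis lower in the Cre mouse. Of 20 lipid uptake, storage and efflux genes 6 were higher and 1 lower, with a median of 1.21. Cd36, the scavenger receptor for fatty acids, stood at 41.3 and 81.9 CPM, a ratio of 1.98. Lpl, lipoprotein lipase, stood at 260 and 434 CPM (1.67), the cholesterol exporter Abcg1 at 52.9 and 94.7 CPM (1.79), and Apoc2 at 208 and 377 CPM (1.82). Fabp4 and Apoe, which are markers of gates, had ratios of 2.97 and 1.72.

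Complement genes had 4 of 10 members higher in these cells, among them the receptors C3ar1 (34.2 and 67.8 CPM, ratio 1.98) and C5ar1 (1.598). Igf1, a growth factor of macrophages and hepatocytes, had a ratio of 1.86, and 22 of 23 lysosomal hydrolase genes were above 1. The summed macrophage markers in the Ly6C-high monocyte-like cells were 4644 CPM in the control mouse and 7532 CPM in the Cre mouse, with 0 and 1 of the 13 markers at 0. How far these monocyte-like cells held macrophage-like cells in unequal parts was not tested. In macrophage-like cells the ratios of Cd36, Lpl and Abcg1 were 0.885, 0.995 and 1.03.

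Cholesterol synthesis genes, the targets of the sterol-sensing factor SREBP2, were below 1 in 9 of 9 members read in Ly6C-high monocyte-like cells, 5 of them lower, with a median of 0.641. Msmo1 stood at 37.1 and 18.6 CPM (0.502), Cyp51 had a ratio of 0.537 and Insig1 of 0.573. Cd209a-positive cells had the same direction in 7 of 7 members, 4 of them lower, with a median of 0.654. The median was 0.851 in macrophage-like cells and 0.764 over all cells, where 21 of 21 members were below 1 and 2 were lower.

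In neutrophil-like cells, which had the lowest Egr2 ratio of the 6 classes compared, few genes could be read. Lcn2, the iron-siderophore binder of granules, stood at 1500.4 and 2763 CPM, a ratio of 1.84. Of 20 immediate early genes 3 were lower and the median was 0.815. Btg2 had a ratio of 0.651 and Nr4a1, which is also a gate marker, one of 0.621. Slc7a11, the cystine importer, stood at 353 and 218 CPM, a ratio of 0.618. Summed macrophage markers in the neutrophil-like cells were 1317 CPM in the control mouse and 2511 CPM in the Cre mouse, and the part of these transcripts in the ratios was not tested.

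Over all cells, several of the highest ratios belonged to markers of endothelial cells or of granules, and the genes here were picked after their values were seen. Siglech, a marker of the plasmacytoid gate, came first at 4.12, while that gate held 35 and 31 cells. Lyve1, a marker of sinusoidal endothelium, stood at 1.56 and 5.83 CPM (3.73) and Gpihbp1, a capillary anchor of lipoprotein lipase, at 5.996 and 17.6 CPM (2.93). The endothelial gate held 30 cells of the control mouse and 70 of the Cre mouse. Camp, a granule gene with low values lost, stood at 38.2 and 115 CPM (3.02), and 1 cell held 32% of the control counts. When endothelial, plasmacytoid, lymphoid and Kupffer-like cells were left out, 79 genes were higher over all cells in place of 125, 77 of them shared.

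Because Cre sits in the Lyz2 locus and the targeted gene lies on the same chromosome, the 10 genes read on either side of each locus were described. Around Lyz2, out to 2806 kb, 1 of 20 genes was higher over all cells (Ptprb, 2.31, an endothelial gate marker) and 0 were lower, with a median of 1.04. In macrophage-like cells 0 of the 17 read were past 1.5-fold, at a median of 1.08. Around Egr2, out to 5120 kb, the median was 1.03 over all cells. In macrophage-like cells 2 neighbours of Egr2 were higher, Tmem26 at 2.84 and Cdk1 at 1.79, and 1 was lower, the thiol dioxygenase gene Ado, 10.04 kb from the start of Egr2, at 12.2 and 7.55 CPM (0.618).

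The lists that follow had medians near 1, which does not measure the spread of single genes or of mice. Over all genes read in macrophage-like cells, the 5th and 95th percentiles of the ratio were 0.815 and 1.30. The 41 nuclear-encoded respiratory chain genes had a median of 0.975 in macrophage-like cells and 0.996 in Cd209a-positive cells, with 0 past 1.5-fold in either, and the 13 mitochondrially encoded genes had a median of 1.04 over all cells. Of 19 glycolysis genes in macrophage-like cells 1 was lower, the glucose transporter Slc2a1, with a median of 0.910 for the list. Kupffer cell transcription factors had a median of 1.00 in macrophage-like cells with 1 of 18 higher, which was Irf7. Spic and Id3, which are among them, had ratios of 1.00 and 0.972.

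The ND-fed pair was read beside the CDA-HFD-fed pair for the genes above. Itgax, Matk and Bhlhe40 had ratios of 0.801, 0.933 and 1.02 over all ND cells, where Kupffer-like cells made up 44.4% and 52.7% of the cells. Interferon gamma-induced genes were lower on ND in 15 of 24 members, with a median of 0.621, whereas 0 of 24 were past 1.5-fold over all cells on CDA-HFD and the median was 0.895. Cxcl9 stood at 221 and 57.8 CPM on ND (0.262), and at 41.8 and 31.5 CPM on CDA-HFD (0.754). The difference of the ratios between the diets was not tested.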

How the data were processed

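The deposited matrix holds whole-number counts per gene and cell, which the authors made from TAS-Seq libraries (a whole-transcriptome single-cell method on the BD Rhapsody platform) aligned to the GRCm38 transcriptome. The submitters' processing notes name Seurat 4.1.1 and R 4.2.1. Cells carried the mouse in the barcode name, as the authors assigned it from the hashtag counts. Of 16786 barcodes, 1392 (8.29%) had a doublet prefix and were left out, as were 10 cells with more than 25% mitochondrial counts, and 7 hashtag columns of no sample here were not used. Whether the counts are molecules or reads is not given in the sources used here, so intervals cover counting error only. The depth per mouse and class is given in the text.

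Counts were summed per mouse and class, divided by the total and given as counts per 1000000 counts (CPM). Ratios carry exact binomial intervals and CPM exact Poisson intervals at 95%. Genes needed at least 500 counts in both mice together, and single named values and list members read by cluster at least 100. With 1 mouse per group there was no test. Each cell was scored on 13 marker sets (log of counts per 10000, z-scores limited to -3 and 5, averaged) and joined a class at a score of at least 0.5 that led the next by 0.3. This rule was set after the matrix was seen. Doublets were treated as the authors' prefix marks them, and an alternative left out the 693 cells (4.5%) with the highest Scrublet scores, since Scrublet's own threshold marked 74. Alternatives were other count minimums, folds, normalisations, gates, hashtag purity and 23 Leiden clusters. Ratios and intervals were run on simulated counts, 1 sum per gene and mouse, drawn with the counting error that the intervals assume. The simulation held no spread between cells or mice, so it cannot show how the intervals do there.

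Genes were named as the 15 highest and 15 lowest over all cells among those with at least 500 counts, detection in 5% or more of either mouse's cells and 1 direction in every class read, the 10 highest and 10 lowest by macrophage-like over Cd209a-positive ratio with at least 500 counts in each, members of 29 gene lists, and genes next to Lyz2 and Egr2. Other genes were chosen after their values were seen. Single values of some list members are not reported here. The comparison, the members and the lists were chosen with earlier results of these data known. Promoter windows came from RefSeq (GRCm38.p6). Python 3.11.15, numpy 2.4.6, scipy 1.17.1, pandas 2.3.3, scanpy 1.11.5, R 4.3.3 and edgeR 4.0.16 (TMM factors only) were used.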

Additional observations from a re-analysis of the deposited data

Results flagged for a closer look

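In 2 comparisons, all cells on CDA-HFD with all cells on ND, and macrophage-like with Cd209a-positive cells, the ratio of the Cre mouse to the control mouse was past 1.5-fold in opposite directions for 6 genes. The difference between the opposite ratios was not tested for any of them. Over all cells, Ccl17, a chemokine of dendritic cells, had a ratio of 1.52 on CDA-HFD and 0.291 on ND. Il1r2, the decoy receptor of interleukin 1, had 0.615 on CDA-HFD and 1.64 on ND. Marco, a scavenger receptor of Kupffer cells, had 2.80 on CDA-HFD and 0.543 on ND. Xcr1, a chemokine receptor of cross-presenting dendritic cells, had 2.00 on CDA-HFD and 0.591 on ND. Il1r2, Marco and Xcr1 are markers of gates, and the neutrophil-like share was lower in the Cre mouse on CDA-HFD (15% and 11.7%) and higher on ND (6.09% and 11.8%). The Xcr1-positive share was 0.867% and 1.28% on CDA-HFD and 3.66% and 1.45% on ND, and the Kupffer-like gate held 9 and 21 cells on CDA-HFD and 765 and 838 on ND. The part of these shares in the ratios was not tested.

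Within the CDA-HFD-fed pair, Cxcl9, a chemokine induced by interferon gamma, had a ratio of 0.304 in macrophage-like and 1.63 in Cd209a-positive cells. In the latter, 1 cell held 54% of the counts of the Cre mouse, and the ratio was 0.929 without the top cell of each mouse. Ube2c had a ratio of 2.43 in macrophage-like and 0.515 in Cd209a-positive cells, and the second ratio was 0.817 with clusters in place of gates.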

How the results depend on the processing

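No paired analysis was possible because each group was 1 mouse, and for the same reason no replicate could be left out. The counts of genes, given here as higher and lower, followed the count minimum and the fold by construction. With a minimum of 100 counts they were 511 and 264 over all cells, 425 and 273 in macrophage-like cells, 284 and 281 in Cd209a-positive cells, 86 and 49 in macrophage-like cells alone, and 25 and 16 in both. With a minimum of 2000 they were 33 and 45, 25 and 35, 5 and 7, 5 and 6, and 1 and 4 in the same order. With a 2-fold threshold they were 42 and 19, 21 and 21, 4 and 9, 2 and 3, and 1 and 2. With edgeR's TMM factors 10 genes were higher in macrophage-like cells alone, 9 of them shared with the 16. With own-hashtag counts of at least 90%, 14 genes were lower in both classes. With stricter gates 20 genes were higher in Cd209a-positive cells, and the Egr2 ratio in macrophage-like cells was 0.0663. With clusters, 11 genes were higher and 17 lower in both classes, and that Egr2 ratio was 0.211. The Egr2 ratio over all cells was 0.339 as a mean over cells. Where these settings changed the cells rather than the threshold, the cause was not tested.

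The next alternatives were chosen after seeing the data. Gates without the markers past 1.5-fold left 10 genes lower in macrophage-like cells alone, and leaving out endothelial, plasmacytoid, lymphoid and Kupffer-like cells left 79 higher over all cells. Of 1276 alternative values of 104 named ratios past 1.5-fold, 23 fell inside 1.5-fold and 7 changed direction. The 1276 include values under the other count minimums, which decide whether a gene is read and cannot change its ratio. Many of the 104 ratios were also named for being extreme. The share of values that moved is therefore not a measure of how stable the ratios were. Cxcl9 in Cd209a-positive cells became 0.982 as a mean over cells, 0.925 with stricter gates, 0.291 with clusters, 0.929 without the top cell and 0.736 with the reduced gates. S100a9 in the same class became 0.611 with stricter gates, and Pclaf in macrophage-like cells 0.892 without the cells highest in proliferation markers. Bhlhe40 and Matk over all cells, Amz1, Mki67 and H2-Q6 in macrophage-like cells were among those that moved inside 1.5-fold under at least 1 alternative.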

Other observations

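Some further gene lists had medians close to 1 in macrophage-like cells. Fc gamma receptor genes had a median ratio of 1.05 in macrophage-like cells, with 0 of 6 past 1.5-fold, and S100 genes one of 1.02 with 0 of 8. Nrf2 antioxidant targets had a median of 0.95 in macrophage-like cells with 0 of 19 past 1.5-fold, and iron and heme genes one of 0.935 with 0 of 13. Of 25 lysosomal hydrolase genes in macrophage-like cells 1 was lower, Ctsk, at a median of 0.988.

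Some values rested on few cells. Retnla, an alternative activation gene with low values lost, stood at 33.7 CPM in the control mouse and 0.333 CPM in the Cre mouse over all cells, and 1 cell held 66% of the control counts. In Ly6C-low monocyte-like cells Tnf stood at 8.94 and 25.7 CPM, a ratio of 2.87, from 27 and 109 counts, which is the opposite direction to its ratio of 0.559 in macrophage-like cells.

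In the ND-fed pair, neutrophil-like cells had all 7 mitochondrially encoded genes read lower, with a median of 0.533, against a median of 1.04 in the CDA-HFD-fed pair. The ND gate held 105 cells of the control mouse and 188 of the Cre mouse. Of all 358 genes read there, 18 were lower (5.03%) and 4 higher (1.12%).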
